A study of Mus musculus with 11 samples.

Results

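The genes described here are those that carry the first steps of T cell receptor signaling inside the T cell. They were chosen by symbol, and these genes and the gene lists used below were picked with earlier results of these data known. They are the kinases Lck, Zap70, Fyn and Txk, the adaptors Lat, Lcp2 and Sh2d1a, and the brakes Sla2 and Ubash3a. This makes 9 of the 25677 genes listed in the count table. RNA was sequenced from whole kidneys of female mice aged 21 weeks, and each mouse gave 1 library. The 3 control mice (Ctr) were healthy C57B6 animals without treatment, the 4 Lpr mice were untreated MRL/lpr animals, which carry a mutation of Fas and develop lupus nephritis, and the 4 DNase mice were MRL/lpr animals that received daily intraperitoneal DNase I. Lpr and DNase mice share the MRL/lpr background and differ from Ctr both by strain and by disease, which therefore cannot be told apart in either comparison with Ctr. DNase mice differ from Ctr by the treatment as well, which cannot be told apart from strain and disease there. Comparing Lpr with Ctr asks what the diseased kidney expresses, and comparing DNase with Lpr asks what the treatment changes.

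When the T cell receptor meets its ligand, Lck phosphorylates the CD3 chains, Zap70 docks on them and phosphorylates the scaffold Lat and the adaptor Lcp2 (also called SLP-76), and the complex built there passes the signal on to calcium, Ras and NF-kB. Fyn is another SRC family kinase of T cells that many other tissues also express, Txk is a TEC family kinase of T and NK cells, and Sh2d1a (SAP) couples SLAM family receptors to Fyn. Sla2 and Ubash3a lower signaling by helping to remove receptor complexes or their phosphate groups. In lupus nephritis T cells enter the kidney, which in health holds few of them.

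Libraries held between 33469858 and 38460873 counts. Markers of the tissue were present, with a summed level of 6 kidney tubule genes between 9546 and 15957 CPM, counts scaled to library size, in every library. The summed count of Fas lay at 6.00 to 7.84 CPM in Ctr and 5.72 to 8.67 CPM in the MRL/lpr kidneys, so that this gene total does not check the labels. Lpr replicate 3 stood apart, since its log2 CPM, set against the mean of all libraries, fell by 0.393 for each doubling of gene length, whereas the slopes of the other 10 libraries lay between -0.0433 and 0.0775. The members' changes against Ctr are given with and without single libraries where these decide a call.

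The promoters of the main kinases and adaptors are shown first, because that of Fyn stands apart from the others in its number of CpG pairs. RefSeq windows of build GRCm38.p6, from 250 bases before to 50 after a start site, were found for 8 of the 9 genes as 12 windows. Sh2d1a had no entry. The last 150 bases before the start site are printed 5′ to 3′ on the strand of the gene, for Lck with both of its start sites, for Zap70 with 1 of its 3, and for Lat, Lcp2 and Fyn. Capitals mark the letters TGTGGT, which RUNX factors bind, and AGGAAG, which ETS factors bind, on either strand and wholly within the printed stretch.
Lck, upstream start, chr4:129573642-129573791, minus strand: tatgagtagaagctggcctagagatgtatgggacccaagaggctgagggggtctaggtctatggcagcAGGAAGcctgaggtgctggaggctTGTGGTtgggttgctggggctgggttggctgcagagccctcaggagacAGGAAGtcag
Lck, downstream start, chr4:129558373-129558522, minus strand: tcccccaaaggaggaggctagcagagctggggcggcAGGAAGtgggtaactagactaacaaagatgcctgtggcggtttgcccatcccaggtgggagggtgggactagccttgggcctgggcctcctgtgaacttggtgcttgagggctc
Zap70, chr1:36764365-36764514, plus strand: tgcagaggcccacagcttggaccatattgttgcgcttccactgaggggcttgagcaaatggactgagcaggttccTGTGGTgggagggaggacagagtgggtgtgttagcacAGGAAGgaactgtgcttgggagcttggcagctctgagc
Lat, chr7:126369569-126369718, minus strand: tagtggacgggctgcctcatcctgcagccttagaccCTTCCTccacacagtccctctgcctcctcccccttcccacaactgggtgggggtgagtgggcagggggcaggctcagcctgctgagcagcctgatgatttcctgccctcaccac
Lcp2, chr11:34046778-34046927, plus strand: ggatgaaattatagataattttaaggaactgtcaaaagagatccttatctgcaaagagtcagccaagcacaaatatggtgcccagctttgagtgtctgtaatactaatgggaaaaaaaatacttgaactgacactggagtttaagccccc
Fyn, chr10:39369649-39369798, plus strand: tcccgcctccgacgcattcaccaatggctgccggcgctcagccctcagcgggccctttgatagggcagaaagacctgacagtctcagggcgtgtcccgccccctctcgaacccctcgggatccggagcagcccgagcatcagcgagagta

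In the 300 bases of the whole window, Fyn held 31 CpG pairs and a GC content of 69.0%, and 10.6% of the 32851 mouse windows held at least as many CpG pairs. The other 11 windows held between 0 CpG pairs, at Lcp2, and 10, at Lat, and their GC content ran from 42.7% at Txk to 65.7% at Lat. TGTGGT was found in 5 of the 12 windows, at Lck, Zap70, Lat, Sla2 and Txk, and in 16.8% of all windows. AGGAAG was found in 7 of the 12, at Lck, Zap70, Lat, Lcp2 and Txk, and in 35.4% of all windows. At the upstream start of Lck an ETS match lay 175 bases before the start, outside the printed stretch. Within that stretch the RUNX letters lay 58 bases and the ETS letters 82 and 10 bases before the start. At the printed start of Zap70 they lay 75 and 38 bases before it, with a further ETS match outside the printed stretch. The Zap70 windows that are not printed held no RUNX letters. Of these, the window at the annotated gene start (chr1:36761798) held 1 ETS match and the most downstream window held 0. At Lat a RUNX match began 5 bases before the start and ran over it, so it is not in capitals. The letters AGATAA, bound by GATA factors, stood in 3 member windows and 11.2% of all windows, CAGNTG (E proteins) in 9 and 51.4%, TTCAAAG (TCF/LEF) in 1 and 5.14%, TATAAA in 0 and 13.6%, and GGGCGG (SP factors) in 2 and 35.7%. Windows of the same gene are not independent, and a match is a run of letters and not a measured binding site.

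All 9 members were higher on average in Lpr than in Ctr, and 6 of them passed the threshold for a call, an edgeR adjusted p under 0.05 with an absolute log2 fold change above 2. Lck, Zap70, Lat, Lcp2 and Ubash3a rose 9.85- to 18.5-fold and Sh2d1a rose from at most 3 counts in any Ctr kidney, whereas Fyn and Txk, at 1.72- and 2.20-fold, stayed under the threshold. Genome-wide, 4.65% of the 16074 tested genes were called higher, and 1.13% were called lower. Because the members were chosen with earlier results of these data known, these shares are set beside them without a test of enrichment. The groups did not overlap for 8 of the 9 members, all but Txk, against 14.4% of all tested genes with every Lpr kidney above every Ctr kidney. The median log2 fold change of the members was 3.35, beside 0.03 over all tested genes. In bulk kidney RNA, more T cells and more of these RNAs per T cell cannot be told apart. All 9 members passed the filter on low counts, which asks for about 0.28 CPM in 3 libraries, in each comparison with Ctr. Sh2d1a, Sla2 and Ubash3a reached this level in 0 of the 3 Ctr libraries and so passed through the MRL/lpr libraries alone, and Zap70 and Lat reached it in 2 of 3. Members that pass in this way had to differ, so the counts of called and non-overlapping members that include them are descriptions. With single libraries left out, 4 to 7 members were called, with 4 without Ctr replicate 1 or 3, 5 without Ctr replicate 2 or Lpr replicate 2, 3 or 4, and 7 without Lpr replicate 1.

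Of the kinases, Lck (chr4:129548344-129573641, minus strand, build GRCm38, positions here and below from the GENCODE M21 annotation) stood at 1.61, 1.28 and 2.13 CPM in Ctr. In Lpr it stood at 12.0, 31.7, 14.3 and 17.6 CPM, and in DNase at 11.0, 14.6, 20.4 and 18.4 CPM. Every MRL/lpr kidney lay above every Ctr kidney, and Lpr replicate 2 lay above all others. The fold was 11.3 in Lpr (95% confidence interval 5.91 to 21.7, log2 fold change 3.50 ± 0.41 SE, edgeR adjusted p = 0.00138).

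Zap70 (chr1:36761798-36782818, plus strand), the kinase that docks on the phosphorylated receptor, was at 0.725, 0.287 and 0.570 CPM in Ctr. In Lpr it was at 4.22, 9.16, 4.03 and 4.21 CPM, and in DNase at 3.81, 5.46, 4.79 and 4.53 CPM. The groups of MRL/lpr kidneys did not overlap with Ctr, and 3 of the 4 Lpr kidneys lay within a narrow range below replicate 2. Its log2 fold change in Lpr was 3.35 ± 0.49 (SE, edgeR adjusted p = 0.00334).

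Fyn (chr10:39368855-39565381, plus strand) has the CpG-rich promoter shown above and was found at similar levels in every Ctr kidney, at 18.8, 16.5 and 16.1 CPM in Ctr. It stood at 23.97, 39.1, 27.8 and 26.7 CPM in Lpr and at 22.0, 25.8, 26.3 and 23.4 CPM in DNase. The MRL/lpr kidneys lay above Ctr without overlap, by a small margin. In Lpr the log2 fold change was 0.78 ± 0.21 (SE) and the edgeR adjusted p was 0.0497, a rule on p alone that 7.27% of all tested genes passed in this direction. This p did not hold when single libraries were left out, except Lpr replicate 3. It was between 0.134 and 0.184 without each Ctr replicate, and 0.0534, 0.0848 and 0.0725 without Lpr replicates 1, 2 and 4.

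Txk (chr5:72695978-72752777, minus strand) did not separate the groups. Its level was 0.886, 0.447 and 0.899 CPM in Ctr, 0.703, 2.77, 1.504 and 1.59 CPM in Lpr, and 1.05, 0.843, 0.778 and 0.695 CPM in DNase. Lpr replicate 1 lay within the Ctr range and the other 3 Lpr kidneys above it. The log2 fold change in Lpr was 1.14 (95% confidence interval -0.03 to 2.31, edgeR adjusted p = 0.244).

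Of the adaptors, Lat (chr7:126363824-126369570, minus strand) was at 0.349, 0.223 and 0.839 CPM in Ctr. It reached 4.78, 11.3, 11.9 and 7.00 CPM in Lpr and 5.68, 5.25, 7.81 and 6.46 CPM in DNase. All MRL/lpr kidneys lay above Ctr, with a fold of 18.5 in Lpr (95% confidence interval 7.64 to 44.7, log2 fold change 4.21 ± 0.56 SE, edgeR adjusted p = 0.00222). Its highest Lpr kidney was replicate 3, the library with the length slope. The scaffold stood at 7.40 and 7.01 FPKM, in which fragments are scaled to gene length and library size, in Lpr replicates 2 and 3, above every Ctr value of at most 0.526 FPKM.

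Lcp2 (chr11:34046920-34092295, plus strand), which platelets and myeloid cells use as well as T cells, was at 2.28, 1.47 and 2.19 CPM in Ctr. It was even across Lpr, at 18.7, 22.5, 18.2 and 18.7 CPM, and wider in DNase, at 13.02, 19.9, 28.4 and 19.9 CPM. Its log2 fold change of 3.30 ± 0.24 in Lpr had the smallest SE of the 6 called members (edgeR adjusted p = 0.000293). Its exons overlap those of 4930469K13Rik on the other strand by 282 bases. That gene stood between 0.142 and 1.98 CPM over the 11 kidneys. Whether the counting used strand is not given in the sources used here, so reads from the overlap cannot be told apart.

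Sh2d1a (chrX:42502453-42529330, plus strand) had 3, 2 and 1 counts in Ctr. It had 9, 71, 51 and 40 counts in Lpr and 27, 40, 64 and 31 in DNase, or 0.253 to 1.85 CPM and 0.745 to 1.61 CPM. No Ctr kidney reached an MRL/lpr kidney, and Lpr replicate 1 lay far below the other 3. The ratio of summed counts, each scaled by the summed library sizes of its group, was 20.4 in Lpr (95% counting interval 9.19 to 56.4) and 18.1 in DNase (8.15 to 50.2), and these intervals cover counting error only. The fitted log2 fold change was 4.27 ± 0.83 in Lpr (SE, edgeR adjusted p = 0.0113), and it rests on at most 3 counts in each Ctr kidney. Without each Ctr replicate the adjusted p was 0.0518, 0.0552 and 0.0596, and without Lpr replicate 2, 3 or 4 the gene did not pass the filter. Tenm1, which overlaps its exons by 1465 bases on the other strand, had at most 1 count in any library.

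Of the brakes, Sla2 (chr2:156872457-156887192, minus strand) was the rarest member, with 2, 3 and 0 counts in Ctr. It had 5, 35, 23 and 11 counts in Lpr and 10, 19, 27 and 15 in DNase. The groups did not overlap, but in Lpr the edgeR adjusted p was 0.0632 at a fitted log2 fold change of 3.30 ± 0.97 (SE), and no call was made. Without Lpr replicate 1, its lowest kidney, the adjusted p was 0.0397, and without Lpr replicate 2, 3 or 4 the gene did not pass the filter. The same ratio of scaled summed counts was 10.6 in Lpr (95% counting interval 4.35 to 33.6) and 9.54 in DNase (3.90 to 30.3). Rab5if overlaps its exons by 731 bases on the other strand and stood at 82.1 to 192 CPM, so a few reads of that abundant gene could not be told apart from Sla2 reads if strand was not used.

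Ubash3a (chr17:31207873-31246892, plus strand) was at 0.161, 0.192 and 0.120 CPM in Ctr. In Lpr it was at 1.18, 3.29, 0.662 and 1.99 CPM, and in DNase at 1.19, 1.60, 2.06 and 1.85 CPM. Every MRL/lpr kidney lay above every Ctr kidney, and the Lpr kidneys ranged 4.97-fold from lowest to highest. The log2 fold change in Lpr was 3.48 ± 0.65 (SE, edgeR adjusted p = 0.0105). Without Ctr replicate 1 or 3 the adjusted p was 0.0571 and 0.0568.

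**Figure D1:**
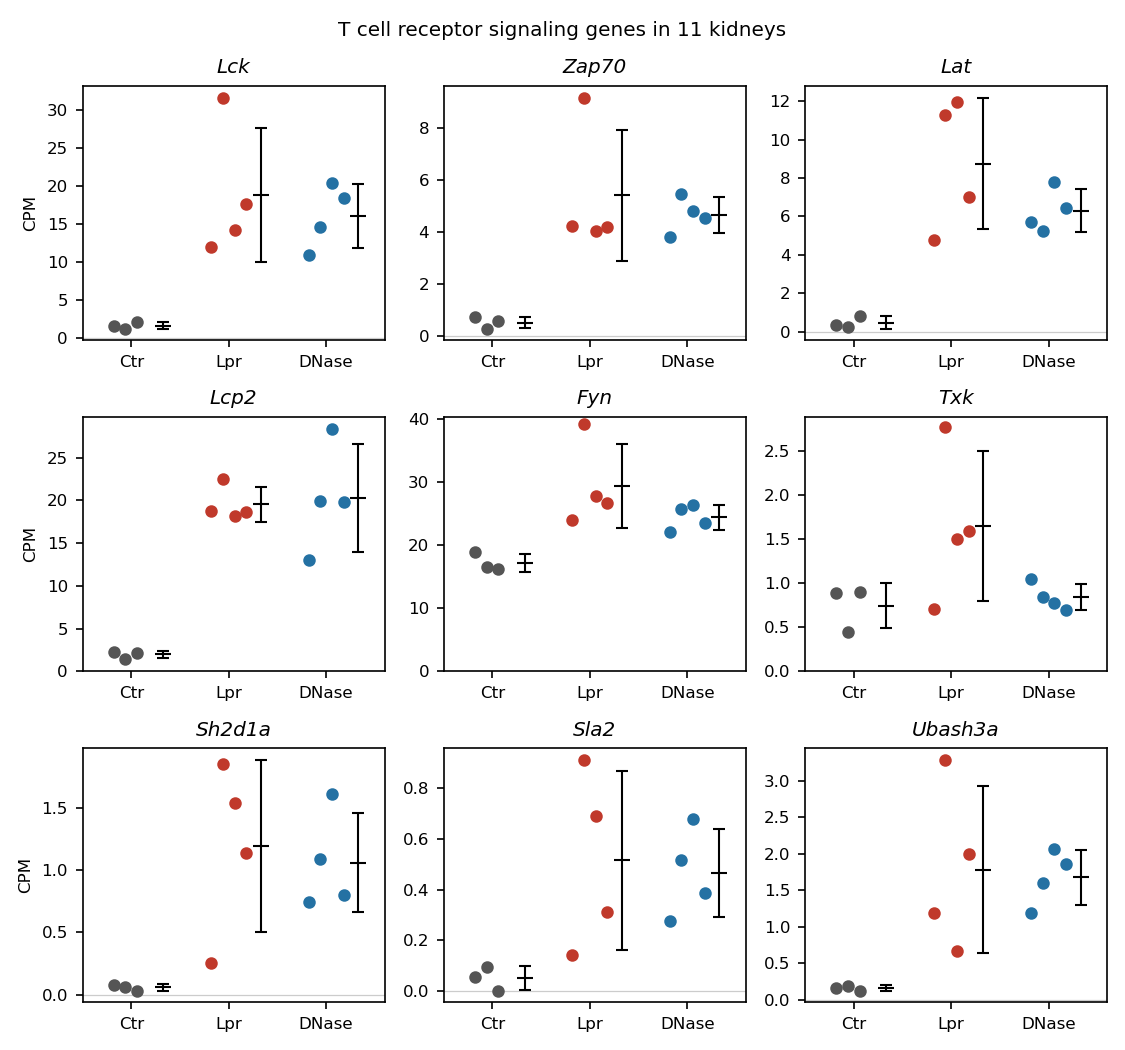
CPM of each of the 9 genes (y axis, linear, its own scale in each panel) in each kidney of Ctr (grey, n = 3), Lpr (red, n = 4) and DNase (blue, n = 4), with points in replicate order and the mean ± SD beside them. Every MRL/lpr kidney lies above Ctr except for Txk, and Lpr replicate 2 (second red point) is the highest MRL/lpr kidney for 7 of the 9 genes.

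The same kidneys tended to be high or low across the members. Among the 8 MRL/lpr kidneys, Lpr replicate 2 was the highest for 7 of the 9 genes and among the top 2 for all 9. Lpr replicate 1 and DNase replicate 1 were each among the lowest 2 for 6 genes. The summed level of 8 T cell markers (Cd3d, Cd3e, Cd3g, Cd247, Cd2, Cd5, Cd6 and Cd28) had the same extremes, at 106 CPM in Lpr replicate 2, 32.7 in Lpr replicate 1 and 40.2 in DNase replicate 1.

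Markers of T cells and of some other immune cells moved with the members. Over all tested genes, 4.65% were called higher in Lpr and 4.56% in DNase. All 8 T cell markers were called higher in Lpr and in DNase, with sums of 2.49 to 5.39 CPM in Ctr, 32.7 to 106 in Lpr and 40.2 to 70.0 in DNase. Of 6 macrophage markers 5 were called in each comparison, with sums of 153 to 214, 947 to 1910 and 721 to 1408 CPM. NK cell markers had 1 called gene, Eomes, and sums of 0.543 to 1.13, 3.49 to 10.6 and 4.17 to 5.67 CPM. Eomes made up most of these sums in the MRL/lpr kidneys, with means of 5.92 CPM in Lpr and 4.03 CPM in DNase. Klrb1c was at a log2 fold change of -0.13 in Lpr and 0.06 in DNase. Ncr1 was tested in DNase only and not called, and Klre1 was tested in neither comparison. B cell markers, with 1 of 4 called in Lpr and 3 of 4 in DNase, summed to 1.05 to 5.39, 7.82 to 17.4 and 12.5 to 28.2 CPM. Plasma cell markers, with 3 of 4 called in each, summed to 30.2 to 48.8, 173 to 751 and 306 to 1049 CPM. Of the neutrophil markers, S100a8 and S100a9 were called in each and Ly6g had 0 counts in Ctr and at most 3 elsewhere, with sums of 1.08 to 3.62, 6.69 to 20.8 and 5.35 to 14.1 CPM. Of 4 platelet markers, 3 and 2 of them tested, and 4 mast cell markers, 0 were called in either comparison, with sums of 6.35 to 13.6 and 0.862 to 5.90 CPM over all kidneys. Kidney tubule, podocyte and endothelium markers also had 0 called genes. Tubule sums lay at 14797 to 15957 CPM in Ctr, at 9546 to 13627 in Lpr, all below Ctr, and at 12044 to 15505 in DNase. Podocyte sums lay at 627 to 715, 325 to 613 and 583 to 668 CPM. The part of each cell type in the members' levels was not tested.

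The comparison of DNase with Ctr gave 7 called members, the same 6 and Sla2, where 4.56% of 16100 tested genes were called higher and 1.45% lower. It shares its control kidneys with the comparison of Lpr with Ctr, so both are given side by side and not as separate evidence. No overlap with Ctr was seen for 8 of the 9 genes, against 18% of all tested genes. The log2 fold changes in DNase were 3.27 for Lck, 3.12 for Zap70, 3.73 for Lat, 3.35 for Lcp2, 4.10 for Sh2d1a, 3.16 for Sla2 and 3.39 for Ubash3a, with edgeR adjusted p between 4.22e-05 and 0.0108. Their SE in DNase lay between 0.27 and 0.72, against 0.24 and 0.97 in Lpr. Fyn rose by a log2 fold change of 0.51 ± 0.10 (SE, edgeR adjusted p = 0.00723), on the rule of p alone that 13.1% of tested genes passed. With the 3 groups in 1 edgeR fit its adjusted p was 0.0877. Txk was at 0.17 ± 0.34 (SE, edgeR adjusted p = 0.774).

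Between DNase and Lpr no member was called, and the groups overlapped for all 9. No gene at all was called higher (0% of 15832 tested genes) or lower (0%) by edgeR, at 886 genes with an unadjusted p under 0.05, while DESeq2 called 2 higher and 3 lower, none of them a member. Of the 9 estimates 8 lay below 0, with a median of -0.21 beside -0.02 over all tested genes. For Lck the log2 fold change was -0.23, with a 95% confidence interval of -0.92 to 0.47, or 0.527- to 1.39-fold. For Lcp2 it was 0.06 (-0.42 to 0.55), and for Lat -0.47 (-1.13 to 0.20). The intervals of the rare members were wide, at -1.35 to 1.01 for Sh2d1a, -1.39 to 1.10 for Sla2 and -1.09 to 0.93 for Ubash3a, so that changes of these sizes were not detectable with 4 kidneys a group.

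Txk had the lowest estimate between DNase and Lpr, with means of 0.841 CPM in DNase and 1.64 CPM in Lpr. Its log2 fold change was -0.96 (95% confidence interval -1.86 to -0.06, edgeR adjusted p = 0.854), and 3 of the 4 Lpr kidneys lay above all DNase kidneys. For 5 of the other members the direction changed without Lpr replicate 2. The estimates for Lck, Zap70, Sh2d1a, Sla2 and Ubash3a then turned to 0.13, 0.16, 0.12, 0.29 and 0.39, and that for Txk was -0.59. With single libraries left out, Lat stayed between -0.67 and -0.29 and Fyn between -0.35 and -0.10, and Lcp2 turned to -0.14 without DNase replicate 3.

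**Figure D2:**
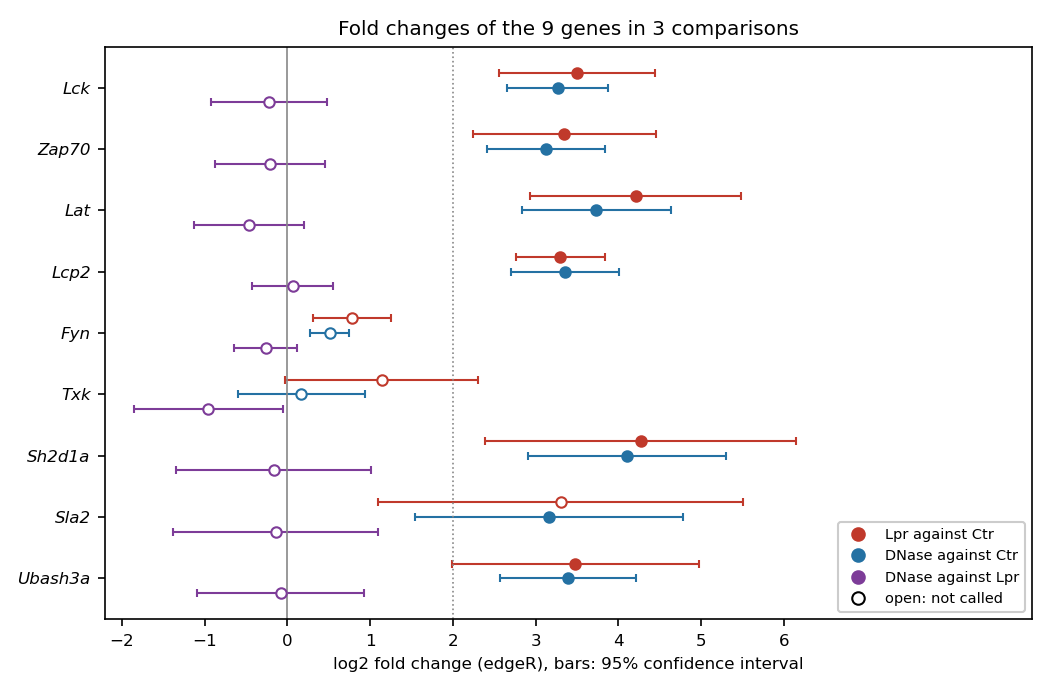
Log2 fold changes from edgeR (x axis) with 95% confidence intervals for the 9 genes (y axis) in Lpr against Ctr (red), DNase against Ctr (blue) and DNase against Lpr (purple), filled where called and open otherwise, with a dotted line at 2. The called genes lie above 3 in both comparisons with Ctr, and the purple intervals include 0 except for Txk, whose interval ends at -0.06.

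Set against length, the order of the members changed between groups. In Ctr, Fyn was the most abundant at 1.58 ± 0.15 FPKM (SD, n = 3), followed by Lck at 0.676, Lcp2 at 0.530, Lat at 0.292, Txk at 0.217, Zap70 at 0.172, Sh2d1a at 0.0539, Ubash3a at 0.0479 and Sla2 at 0.0316. In Lpr, Lck led at 7.92 ± 3.97 FPKM (SD, n = 4), followed by Lat at 5.50, Lcp2 at 5.37, Fyn at 2.80, Zap70 at 1.81, Sh2d1a at 1.14, Ubash3a at 0.571, Txk at 0.493 and Sla2 at 0.340. In DNase the order was Lck at 6.94 ± 1.77 FPKM (SD, n = 4), Lcp2 at 5.79, Lat at 4.14, Fyn at 2.40, Zap70 at 1.61, Sh2d1a at 1.06, Ubash3a at 0.547, Sla2 at 0.320 and Txk at 0.261. Most neighbours in these orders overlapped. The ranges were apart only for Fyn over Lck and Zap70 over Sh2d1a in Ctr, for Lcp2 over Fyn in Lpr, and for Lat over Fyn, Fyn over Zap70 and Sh2d1a over Ubash3a in DNase. Fyn made up 44.6 ± 6.84% (SD, n = 3) of the members' summed FPKM in Ctr, and 11.0 ± 1.25% in Lpr and 10.7 ± 1.66% in DNase (SD, n = 4 each). The share of Lck went from 18.6% to 29.6% and 29.9%.

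To set the members against the receptor they serve, their counts were divided by the summed counts of the 4 CD3 chain genes Cd3d, Cd3e, Cd3g and Cd247. This sum was 1.66 to 3.46 CPM in Ctr, 17.9 to 55.8 in Lpr and 22.0 to 40.9 in DNase. Per 100 CD3 counts, Lck stood at 69.3 ± 20.1 (SD, n = 3) in Ctr, and at 56.1 ± 13.1 in Lpr and 49.9 ± 0.671 in DNase (SD, n = 4 each), and the groups overlapped. In the 4 DNase kidneys this ratio ran from 49.0 to 50.7, a coefficient of variation of 1.34% where counting alone gives 5.12%, so the closeness of these 4 values is below what counting can resolve. Zap70, Lat, Lcp2, Sh2d1a, Sla2 and Ubash3a also overlapped between all groups on this scale.

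Fyn and Txk behaved otherwise on the scale of CD3. Fyn went from 726 ± 237 counts per 100 CD3 counts (SD, n = 3) in Ctr to 93.0 ± 29.4 in Lpr and 78.8 ± 17.7 in DNase (SD, n = 4 each). Txk went from 29.4 ± 5.50 (SD, n = 3) to 4.63 ± 0.853 and 2.85 ± 1.35 (SD, n = 4 each). For both genes every MRL/lpr kidney lay below every Ctr kidney. Any gene that rises much less than the CD3 sum falls on this scale, so this restates their small changes in CPM. The share of all genes that fall in this way was not computed. These ratios are descriptions without a test, and counts of genes with different lengths compare groups within a gene and not genes with each other. With Cd2, Cd5, Cd6 and Cd28 as the reference, Lck and Zap70 also lay below Ctr in every MRL/lpr kidney. They stood at 0.612 of the Ctr ratio for each in Lpr and at 0.542 and 0.553 in DNase. Lcp2 and Ubash3a lay below Ctr in DNase, at 0.583 and 0.538. This reference held only 72, 26 and 54 counts in the 3 Ctr kidneys, and its genes Cd6 and Cd5 were among the pathway genes that rose most in Lpr.

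**Figure D3:**
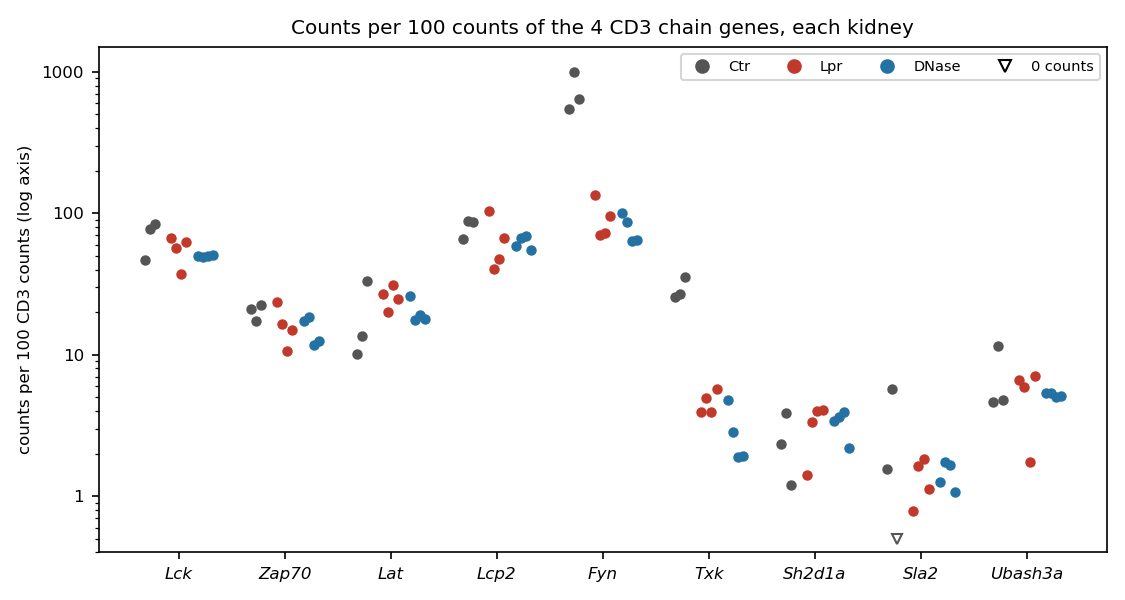
Counts of each of the 9 genes per 100 summed counts of Cd3d, Cd3e, Cd3g and Cd247 (y axis, log scale) in each kidney of Ctr (grey), Lpr (red) and DNase (blue), with an open triangle where the count was 0. The groups overlap for 7 genes, and for Fyn and Txk, which rose much less than the CD3 sum, all MRL/lpr kidneys lie below Ctr.

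Each member was set beside its relatives in sequence family, of which 16 are described. In Lpr 4 of these were called higher, beside 4.65% of all tested genes. In the SRC family Fgr, a kinase of myeloid cells, rose with a log2 fold change of 3.29 (edgeR adjusted p = 0.000548), beside 3.50 for Lck. Lyn, of B and myeloid cells, passed on adjusted p alone at 0.99. The broadly expressed Src and Yes1 were at -0.06 and -0.02, Frk at 0.39 and the B cell kinase Blk at 0.66, and none of these 4 passed. Syk, the relative of Zap70 in B and myeloid cells, was at 1.99 ± 0.51 (SE, edgeR adjusted p = 0.0412), just under the threshold on fold. Without Ctr replicate 1 or 2 or Lpr replicate 1, 2 or 4 its adjusted p was between 0.0649 and 0.157, and it also missed the threshold with limma on log2(FPKM + 1) without the filter (0.0770).

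In the TEC family Btk, of B and myeloid cells, rose by a log2 fold change of 3.03 (edgeR adjusted p = 0.00132), while Txk did not pass, Bmx was at 0.48 and Tec at 0.12. Among adaptors Lat2 rose by 2.54 and Sla by 2.98. Blnk and Clnk, the relatives of Lcp2, were at 0.22 and -0.33, Ubash3b at 0.14 and Sh2d1b1 at 1.25, and none of these passed. In DNase against Ctr 5 of the 16 were called higher, beside 4.56% of all tested genes. In DNase against Lpr none was called, with Blk as the single relative at an unadjusted p under 0.05 (log2 fold change 1.40, edgeR adjusted p = 0.820).

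**Figure D4:**
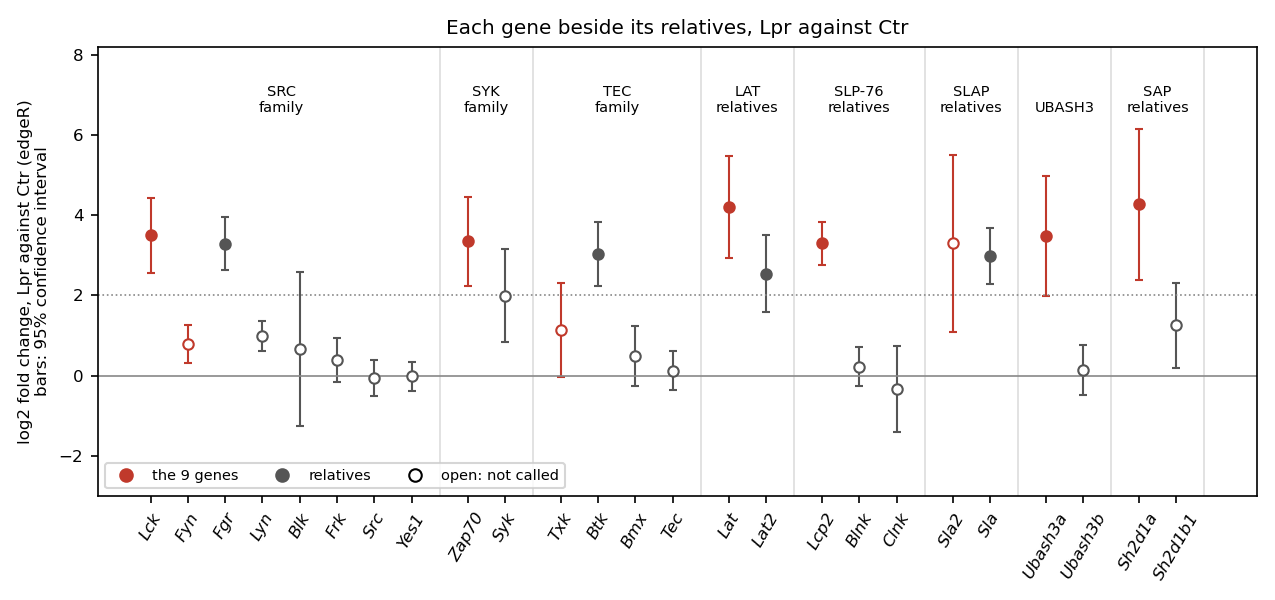
Log2 fold changes of Lpr against Ctr from edgeR (y axis) with 95% confidence intervals for the 9 genes (red) and 16 of their relatives (grey), grouped by family along the x axis, filled where called and open otherwise, with a dotted line at 2. Lck and Fgr lie at 3.50 and 3.29, while Fyn, Lyn, Blk, Frk, Src and Yes1 lie at or below 0.99.

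The wider receptor pathway was described with 5 lists, also chosen with earlier results of these data known. They held 59 further symbols, of which 58 were in the table and 56 were tested. In Lpr 29 were called higher and 0 lower, beside 4.65% and 1.13% of all tested genes. The median log2 fold change of the 56 was 2.39, beside 0.03 over all genes. By role, 7 of 7 receptor and coreceptor genes were called, 7 of 14 adaptors and scaffolds, 4 of 13 downstream enzymes and factors, 7 of 17 phosphatases, ligases and other brakes, and 4 of 5 SLAM receptors and SAP relatives. Among called genes with a mean of at least 1 CPM, the largest changes were those of Slamf6 (5.40), a SLAM receptor that binds SAP, Cd6 (5.12) and Cd5 (4.32), surface receptors that restrain T cell signaling, and Ly9 (4.56), another SLAM receptor, all log2 fold changes with edgeR adjusted p between 0.000734 and 0.00337. Slamf6 went from 0.0853 to 3.81 CPM in the group means, and with limma on log2(FPKM + 1) without the filter its adjusted p was 0.0577. In every Ctr kidney Slamf6, Slamf1, Sit1, Tespa1 and Themis stayed under the filter level of about 0.28 CPM. They passed the filter through the MRL/lpr libraries alone and so had to differ. The counts and rankings of called pathway genes that include them, in either comparison with Ctr, are descriptions. Of the estimates below 0, those with the smallest p were Sos1 at -0.14, Plcg1 at -0.23 and Dgka at -0.11 (edgeR adjusted p between 0.768 and 0.859), and these 3 estimates turned to 0.01, 0.11 and 0.07 without Lpr replicate 3.

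Without a single Ctr replicate the number of called pathway genes in Lpr fell to 21 or 22. In DNase against Ctr 28 were called higher, beside 4.56% of all tested genes. They were led by Slamf6 (5.52), Cd6 (4.82), Ly9 (4.44) and the coreceptor Cd4 (4.34, edgeR adjusted p between 3.95e-06 and 5.10e-05). Plcg1 and Malt1 had the only estimates below 0, at -0.06 and -0.02, and did not pass. In DNase against Lpr 0 of 56 were called by edgeR and by DESeq2, and 0 had an unadjusted p under 0.05. The smallest p values there belonged to Rasgrp1 (0.40), Slamf1 (0.43) and Cd247 (0.33) above 0 and to Bcl10 (-0.47), Ptpn22 (-0.45) and Sla (-0.43) below it, all with an edgeR adjusted p of 0.854.

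**Figure D5:**
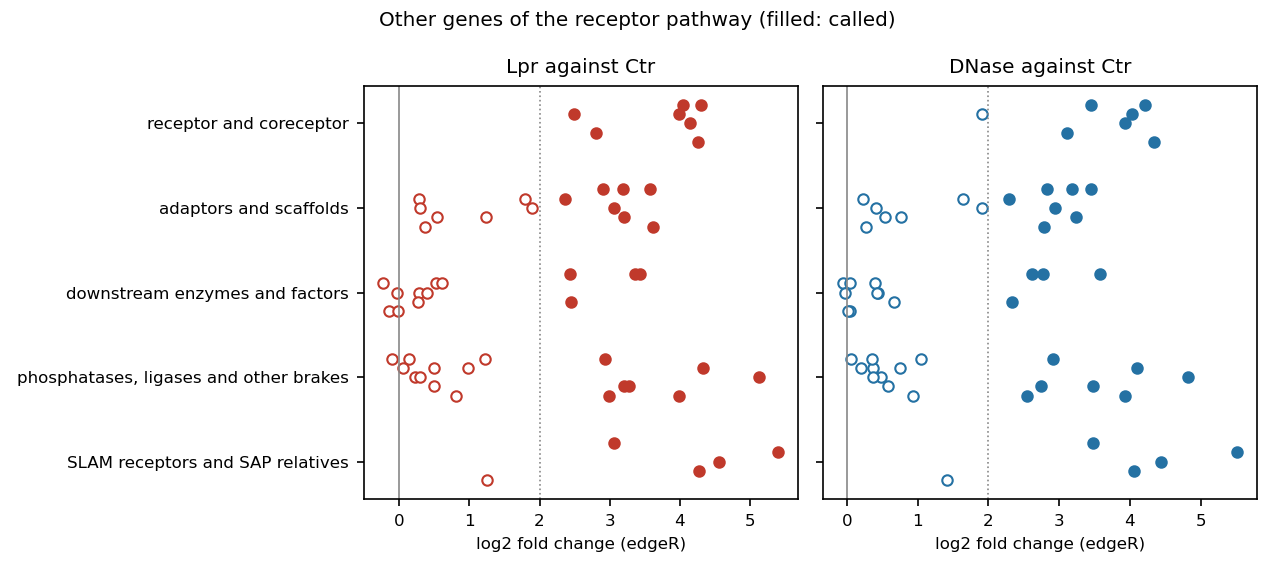
Log2 fold changes from edgeR (x axis) of the tested genes of 5 pathway lists (y axis) in Lpr against Ctr (left, red) and DNase against Ctr (right, blue), 1 point a gene, filled where called, with a dotted line at 2. All 7 receptor and coreceptor genes are filled on the left, and most downstream enzymes and factors lie near 0 on both sides.

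Last, the genes most like each member over the 11 kidneys were named by the root mean square difference of log2 CPM, each gene centred on its own mean, among genes with a mean of at least 1 CPM. For Lck these were Gpr18, Ms4a6b and Fyb, at 0.22 to 0.26. For Zap70 they were Adgre1, Ptafr and Ptpn22 at 0.18 to 0.21, and Fgr and Arl11 were near Lcp2 at 0.16 and 0.18. Adgre1 and Fgr are known from myeloid cells. Lat was nearest to Gimap7, Cst7 and C1rb at 0.34 to 0.42, and Ubash3a to Spn, Grap2 and Rasal3 at 0.24 to 0.29. Fyn was nearest to Gnai2, Mob3a and Sema6b at 0.11 to 0.12, and Txk to Gata6, Cercam and Sytl2 at 0.21 to 0.31. The rare Sh2d1a (Smpdl3b, Sirpb1a and Clec12a) and Sla2 (Pstpip1, Smpdl3b and Cd8b1) had no gene nearer than 0.40. Among the members themselves Lck and Lcp2 (0.29) and Lck and Zap70 (0.30) were nearest. The step from Ctr to the MRL/lpr kidneys enters each of these distances, and they carry no test.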

How the data were processed

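RNA was extracted with TRIzol from 11 whole kidneys and libraries were made with the VAHTS Universal V6 kit. The study's methods name HTSeq as the tool that aligned paired-end reads to reference genes. Whether reads were counted by strand, and the annotation, are not given in the sources used here. The submitters' processing notes name fastp, HTSeq, DESeq2, R 3.2.0 and build mm10. The authors deposited whole-number read counts per gene, and FPKM values, which the authors computed from counts and gene length. All 11 columns were matched to samples, and 0 columns were unused. The members and gene lists were chosen with earlier results of these data known.

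From the counts, each pair of groups was fitted alone with edgeR 4.0.16 in R 4.3.3 (filterByExpr, TMM, quasi-likelihood test, prior count 2), with Benjamini-Hochberg adjustment over all tested genes and a gene was called where the adjusted p was under 0.05 and the log2 fold change above 2 or below -2. CPM values use the TMM-scaled library size. FPKM compared levels between genes. Replicates are separate mice. Scripts were tested on simulated data. Named genes were the 9 members, the 4 called pathway genes with the largest change and a mean of at least 1 CPM in each comparison and direction (or, where none was called, the 3 with the smallest p), the tested relatives, and the 3 genes nearest in pattern to each member, and 2 genes that this rule names are not reported here. Alternatives were DESeq2 1.42.0, its size factors, no filter, a single fit of all groups, a robust fit, a length trend, a replicate block, limma 3.58.1 on log2(FPKM + 1) or log2(FPKM + 0.1), another T cell reference and leaving out each library. Promoter windows came from RefSeq (GRCm38.p6). Figures were drawn with matplotlib 3.10.9 in python 3.11.15.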

Additional observations from a re-analysis of the deposited data

Results flagged for a closer look

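In 2 of the 18 groups of 4 kidneys examined over the 9 members, 1 kidney lay far from the others by Dixon's criterion, and chance flags about 1 in 20 groups. Zap70 stood at 9.16 CPM in Lpr replicate 2, against 4.03 to 4.22 CPM in the other 3, a gap of 0.963 of the range. Lcp2 stood at 22.5 CPM in the same kidney, against 18.2 to 18.7 CPM, a gap of 0.882 of the range. This kidney also had the highest summed T cell markers, and their part in these values was not tested.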

How the results depend on the processing

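With 3 or 4 kidneys a group, small changes and changes of members with few counts were not detectable. Members and pathway genes called lower than Ctr, or called between DNase and Lpr, numbered 0 in the report and in every setting. These counts of 0 are among the 212 counts of calls that kept within 1.5 times of the value reported. The exceptions came from limma on log2(FPKM + 1), which understates the change of low genes: members called were 3 in Lpr and 2 in DNase against Ctr (6 and 7 in the report), and pathway genes called were 7 and 6 (29 and 28), each with and without the filter. Over all genes that setting called 183 higher and 30 lower in Lpr against Ctr (747 and 182 by edgeR) and 155 and 35 in DNase against Ctr (734 and 233). Leaving out single libraries gave 4 to 7 and 7 to 7 called members, and 21 to 31 and 28 to 30 pathway genes.

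With Cd2, Cd5, Cd6 and Cd28 as reference, 7 of 27 log2 ratios to CD3 moved by more than the spread between kidneys: in DNase against Ctr to -0.88 for Lck, -0.86 for Zap70, -0.78 for Lcp2, -3.67 for Fyn and -3.80 for Txk, and in Lpr against Ctr to -0.71 for Zap70 and -3.02 for Txk.

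Replicate numbers do not pair the mice, since deviations of equally numbered kidneys correlated at -0.277 to 0.159. With the replicate block 6 members were called in each comparison with Ctr, Sla2 in DNase being lost (edgeR adjusted p = 0.0727), and the adjusted p was lost for Fyn in Lpr (0.163) and DNase (0.0765) and for Syk in Lpr (0.0631), with 27 and 28 pathway genes. With the block the DNase against Lpr estimates turned to 0.0094 for Sh2d1a, 0.026 for Sla2 and 0.092 for Ubash3a.

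Of single-gene log2 fold changes, 1021 kept direction and side of the threshold, 38 lost the adjusted p, 3 gained it and 35 turned, all of estimates that had not passed. Fyn in Lpr lost its adjusted p in 13 of 17 settings, and Sla2 in Lpr gained it with DESeq2 (adjusted p = 0.0126), with the 3 groups in 1 edgeR fit (0.0193) and without Lpr replicate 1. Without single libraries, log2 fold changes in Lpr against Ctr ran from -0.27 to 0.012 for Sos1, -0.49 to 0.11 for Plcg1, -0.24 to 0.073 for Dgka, -0.17 to 0.063 for Src, -0.11 to 0.032 for Yes1 and -0.048 to 0.23 for Tec, with Lpr replicate 3 behind each turn but that of Yes1 (Lpr replicate 1). Yes1 also turned to 0.023 with the length trend and to 0.0068 and 0.0065 with limma at FPKM + 1 and + 0.1. In DNase against Ctr the ranges were -0.087 to 0.32 for Txk (below 0 without Ctr replicate 2) and -0.076 to 0.035 for Malt1. Limma at FPKM + 1 and + 0.1 gave 0.028 and 0.030 for Plcg1 and 0.050 and 0.064 for Malt1. In DNase against Lpr the ranges were -0.39 to 0.13 for Lck, -0.34 to 0.16 for Zap70, -0.14 to 0.22 for Lcp2, -0.50 to 0.12 for Sh2d1a, -0.45 to 0.29 for Sla2 and -0.36 to 0.39 for Ubash3a, and the highest value was that without Lpr replicate 2 for all of these but Lcp2, whose lowest was that without DNase replicate 3. There limma at FPKM + 0.1 gave 0.086 for Sh2d1a, 0.060 for Sla2 and 0.11 for Ubash3a (0.0059 at FPKM + 1). The cause of these turns was not tested.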
